A study of Bos indicus and Bos indicus x Bos taurus and Bos taurus with 6 samples.

Results

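The genes described here are the MHC class I molecules of cattle and the proteins that load them with peptide. They were taken as the rows of the raw count table whose gene symbol was exactly BOLA, BOLA-NC1, B2M, TAP1, TAP2, TAPBP, NLRC5, ERAP1, CALR or CANX. All 10 were found among 21698 genes, and all 10 had enough counts to be tested. RNA was sequenced from jugular whole blood of adult, non-pregnant, non-lactating cows kept on 1 farm in Malaysia. The breeds were Kedah-Kelantan, an indigenous Bos indicus breed labelled heat-tolerant, Brangus, a composite breed labelled intermediate, and Holstein Friesian, a Bos taurus breed labelled heat-vulnerable. Each breed had 2 libraries, labelled biological replicates 1 and 2, while the study's design gives 4 cows a breed without saying how they relate to the libraries. The labels give all cows the same mean age of 4.5 ± 1.2 years, mean weight of 450 ± 15 kg and temperature-humidity index of 44.68, with no unstressed group, so every comparison is between breeds under the same labelled heat load.

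Class I molecules show short peptides from inside the cell to CD8 T cells. A polymorphic heavy chain folds with the light chain beta-2-microglobulin in the endoplasmic reticulum, helped by the lectin chaperones calnexin and calreticulin. The TAP transporter brings in peptides cut by the proteasome, tapasin bridges TAP to the empty heavy chain, and the aminopeptidase ERAP1 trims the peptides. NLRC5 is the transactivator that switches on heavy chain, B2M and TAP1 promoters in lymphocytes, and interferon gamma raises the whole pathway. In cattle the number of classical heavy chain genes differs between MHC haplotypes.

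Of the 10 members, 5 lie on chromosome 23, which carries the bovine MHC. In the coordinates of the deposited table (build ARS-UCD1.2 in the submitters' processing notes), BOLA (chromosome 23, 28720499 to 28724294, minus strand) and BOLA-NC1 (28541135 to 28552334, minus strand) sit in the class I region. TAP2 (7138820 to 7146579), TAP1 (7177596 to 7186308) and TAPBP (7473471 to 7483390) lie together in another stretch of the same chromosome, also on the minus strand. B2M is on chromosome 10 (103095506 to 103103791, plus strand) and NLRC5 on chromosome 18 (25009893 to 25103235, plus strand). CANX (1607357 to 1640391), CALR (12618114 to 12621944) and ERAP1 (96168784 to 96298585) are on chromosome 7, minus strand. No member's span overlapped another gene of the table.

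Total counts ranged from 25275377 to 28668857 per library. Markers of T cells, B cells, monocytes and neutrophils had counts in every library, with 1 of 8 neutrophil markers at 0 in each Brangus library. The 2 Holstein Friesian libraries stood apart from each other. In replicate 2 against replicate 1, all 8 neutrophil markers, all 6 monocyte markers, all 5 tested eosinophil, basophil and mast cell markers and all 12 tested interferon response genes were higher, with median log2 differences of 3.13, 4.29, 6 and 2.86, while all 8 B cell markers were lower, with a median of -4.08. Over the 9112 genes with a mean log2 CPM of at least 3, the median absolute log2 difference between the libraries of a breed was 0.13 for the Kedah-Kelantan libraries, 0.18 for the Brangus ones and 0.48 for the Holstein Friesian ones. CPM here are counts relative to the library size as scaled by edgeR's TMM method. In whole blood, fewer cells of a type and less RNA per cell cannot be told apart.

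The class I genes spanned more than 2 orders of magnitude in blood. On the authors' FPKM scale, which divides by gene length and allows genes to be compared, B2M was the most abundant member in every library, at 3689 to 6280 FPKM, and ranked between 6th and 12th among all genes of a library. BOLA followed at 732 to 2169 FPKM, with ranks of 70 to 113. CALR (217 to 290 FPKM) and TAPBP (205 to 297 FPKM) came next, ahead of BOLA-NC1 (61.6 to 174 FPKM) and TAP1 (87.5 to 177 FPKM), whose ranges overlapped, and CANX (55.6 to 73.8 FPKM). The lowest were NLRC5 (23.5 to 58.4 FPKM), TAP2 (29.7 to 47.9 FPKM) and ERAP1 (12.7 to 35.0 FPKM), whose ranges also overlapped. Together the 10 genes took 0.762% and 0.846% of all counts of the Kedah-Kelantan libraries, 0.999% and 1.22% of those of Brangus, and 0.926% and 0.957% of those of Holstein Friesian. CANX varied least, with 1.22 times as many CPM in its highest as in its lowest library, and BOLA most, with 3.61 times.

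**Figure D1:**
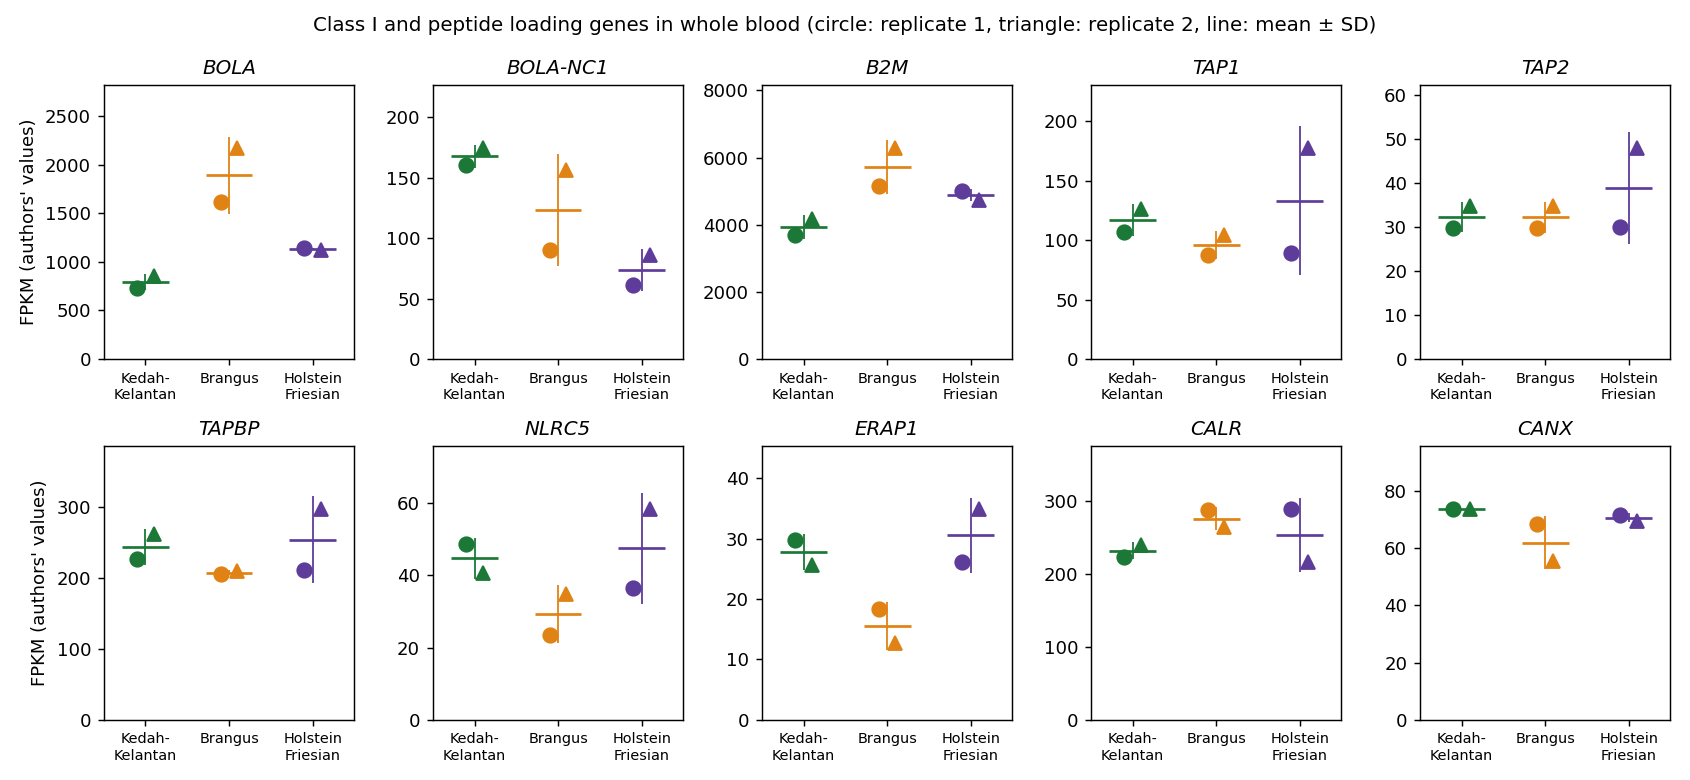
FPKM of the 10 genes (vertical axis, the authors' values, each panel from 0) in Kedah-Kelantan, Brangus and Holstein Friesian. Circles are replicate 1, triangles replicate 2, and lines the mean ± SD of 2 libraries; BOLA and B2M are lowest in both Kedah-Kelantan libraries and highest in both Brangus libraries, and TAP1, TAP2, TAPBP, NLRC5 and ERAP1 are highest in Holstein Friesian replicate 2.

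No member passed edgeR's test at an adjusted p under 0.05 in any of the 3 breed comparisons. This is close to the background, since 1 of 13455 genes passed in Kedah-Kelantan against Holstein Friesian (0.00743%), 1 in Brangus against Holstein Friesian (0.00743%) and 0 in Kedah-Kelantan against Brangus (0%). At an unadjusted p under 0.05 there were 2, 2 and 3 members, against 4.04%, 7.62% and 11.6% of all genes tested. DESeq2 called 0, 0 and 2 members, against 0.985%, 2.33% and 4.99% of genes. The differences below are therefore given as values with their intervals. With 2 libraries a breed the p-values measure the spread between these libraries, and separate animals are not stated beyond the words biological replicate.

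The heavy chain row BOLA and the light chain B2M were ordered the same way across breeds, with Brangus highest and Kedah-Kelantan lowest. None of the other heavy chain rows, given below, had this order of breed means. BOLA, described as an MHC class I heavy chain, had 931 and 1105 CPM in Kedah-Kelantan, 2468 and 3360 CPM in Brangus, and 1555 and 1701 CPM in Holstein Friesian. The ranges of the 3 breeds did not overlap. Set against Brangus, Kedah-Kelantan had a log2 fold change of -1.52 (SE 0.24, 95% interval -2.11 to -0.92), 0.35 times the Brangus level, with an edgeR p of 0.001 that became 0.351 after adjustment over all genes. BOLA ranked 35th of the 13455 genes by p in that comparison. The direction held in every alternative run, summed heavy chain rows included, from -1.73 to -1.06, with adjusted p between 3.79e-06 and 1. Set against Holstein Friesian, BOLA was at -0.68 (SE 0.23, edgeR adjusted p = 0.995) in Kedah-Kelantan and at 0.84 (SE 0.23, edgeR adjusted p = 0.645) in Brangus. These comparisons share the Holstein Friesian libraries. Without Holstein Friesian replicate 2, BOLA was called higher in Brangus at 0.87 (edgeR adjusted p = 0.0453), against 4.36% of genes called higher.

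B2M, the light chain shared by all class I molecules, followed the same order. It had 3512 and 4060 CPM in Kedah-Kelantan, 5918 and 7282 CPM in Brangus, and 5115 and 5378 CPM in Holstein Friesian. Both Kedah-Kelantan libraries were below the other 4, and both Brangus libraries were above all others. The log2 fold change was -0.80 in Kedah-Kelantan against Brangus (SE 0.21, 95% interval -1.33 to -0.28, edgeR adjusted p = 0.353). It was -0.47 in Kedah-Kelantan against Holstein Friesian (SE 0.21, interval -0.99 to 0.05) and 0.33 in Brangus against Holstein Friesian (SE 0.21, interval -0.19 to 0.85). Among the members, B2M was the one whose pattern over the 6 libraries lay closest to BOLA, at a root mean square difference of 0.30 on the centred log2 CPM scale, where it ranked 59th among the 9111 genes compared.

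CALR, the soluble lectin chaperone of the loading complex, had 385 and 422 CPM in Kedah-Kelantan, 596 and 555 CPM in Brangus, and 533 and 445 CPM in Holstein Friesian. Its Kedah-Kelantan libraries were below all others, by a log2 fold change of -0.51 from Brangus (SE 0.18, 95% interval -0.97 to -0.05, edgeR adjusted p = 0.398) and -0.28 from Holstein Friesian (SE 0.18, interval -0.74 to 0.18). CANX, its membrane-bound relative, had 340 and 346 CPM in Kedah-Kelantan, 380 and 312 CPM in Brangus, and 354 and 381 CPM in Holstein Friesian. Its log2 fold changes were -0.10, -0.09 and -0.01 in the 3 comparisons, each with an SE of 0.18. The 95% intervals for CANX together spanned -0.55 to 0.44, so differences of that size cannot be told from 0 here. On the authors' FPKM scale the ratio of CALR to CANX was 3.04 and 3.27 for the Kedah-Kelantan libraries, 4.20 and 4.77 for the Brangus ones, and 4.03 and 3.12 for the Holstein Friesian ones. On that scale the lowest CALR value was that of Holstein Friesian replicate 2, at 217 FPKM, and the Kedah-Kelantan libraries had 224 and 241 FPKM.

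The lower BOLA, B2M and CALR of Kedah-Kelantan against Brangus met the threshold in fits without 1 or both Holstein Friesian libraries. With only the 2 breeds in the edgeR fit, BOLA (adjusted p = 0.0014), B2M (0.00663) and CALR (0.0165) were called lower in Kedah-Kelantan, 3 of 10 members against 10.2% of all genes called lower. Without Holstein Friesian replicate 1 the same 3 were called (edgeR adjusted p = 0.00109, 0.00701 and 0.0188), against 9.09% of genes, and without Holstein Friesian replicate 2 they were called again (0.000969, 0.00609 and 0.0161), against 9.62%. Leaving out any 1 Kedah-Kelantan or Brangus library called no member. In the fits without 1 Holstein Friesian library the lone Holstein Friesian library is assumed to vary like the other breeds. DESeq2 on all 6 libraries called BOLA (adjusted p = 3.79e-06) and B2M (0.00966), against 2.75% of genes lower, and CALR missed the threshold (0.0987). The log2 fold changes moved little in these 4 settings, ranging from -1.52 to -1.51 for BOLA, -0.81 to -0.79 for B2M and -0.52 to -0.50 for CALR. They were smaller by limma on the authors' FPKM, at -1.24 for BOLA, -0.54 for B2M and -0.25 for CALR, with none called. The median of all genes was 0.19 on that scale, against 0.02 in the main fit.

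**Figure D2:**
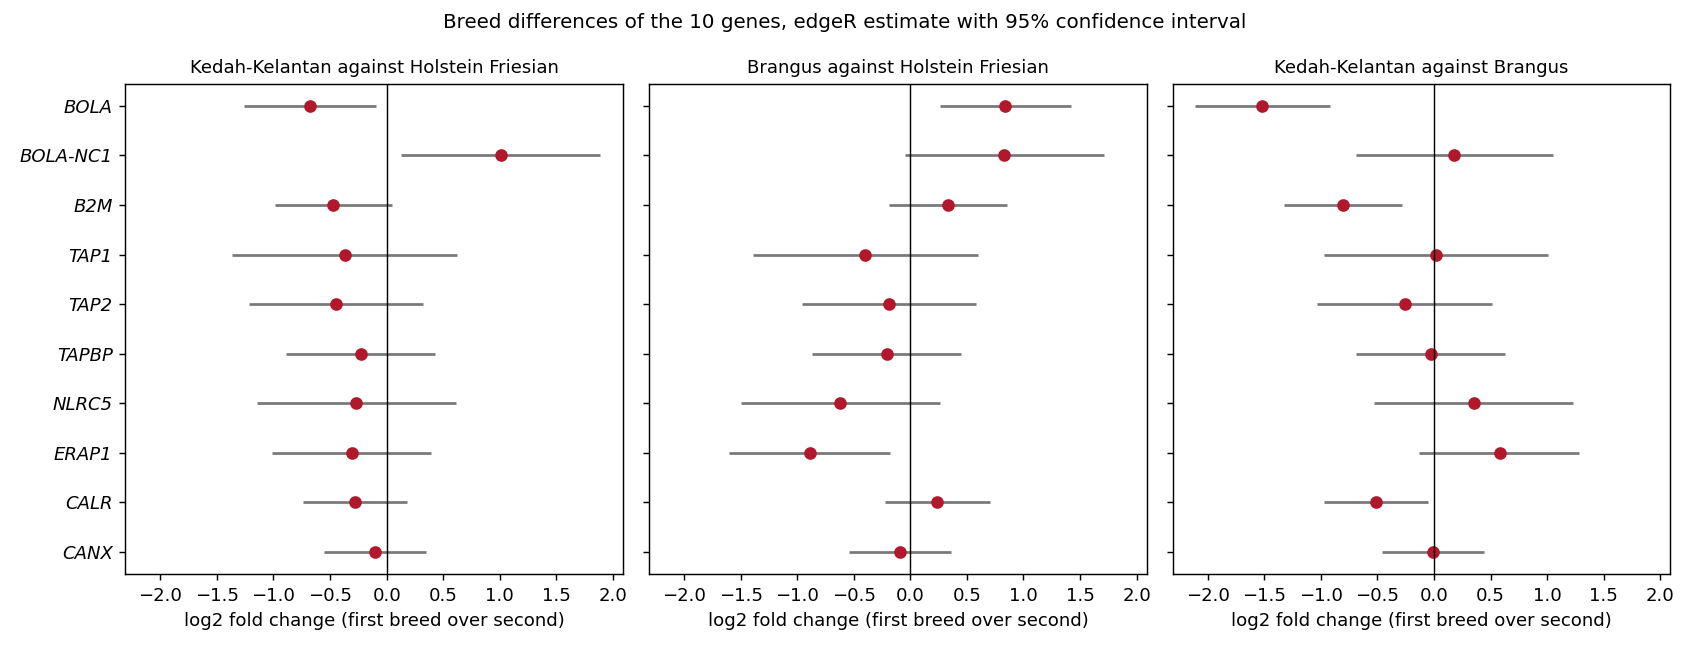
Log2 fold change of each gene (horizontal axis, first breed over second) in the 3 comparisons. Points are edgeR estimates and lines 95% confidence intervals; in Kedah-Kelantan against Brangus the intervals of BOLA, B2M and CALR lie below 0.

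BOLA-NC1, described as a non-classical class I antigen, did not follow BOLA. It had 398 and 441 CPM in Kedah-Kelantan, 270 and 471 CPM in Brangus, and 163 and 254 CPM in Holstein Friesian. Both Kedah-Kelantan libraries and both Brangus libraries were above both Holstein Friesian libraries, while Kedah-Kelantan lay within the Brangus range. The log2 fold change was 1.01 in Kedah-Kelantan against Holstein Friesian (SE 0.35, 95% interval 0.13 to 1.89, edgeR adjusted p = 0.995), 0.83 in Brangus against Holstein Friesian (SE 0.35, interval -0.05 to 1.71) and 0.18 in Kedah-Kelantan against Brangus (SE 0.35, interval -0.69 to 1.05). Without Holstein Friesian replicate 2 the first was 1.32 and passed (edgeR adjusted p = 0.0339), against 6.56% of genes called higher, and without Brangus replicate 1 the third was -0.17. On the authors' FPKM scale, the ratio of BOLA to BOLA-NC1 was 4.56 and 4.89 for the Kedah-Kelantan libraries, 17.8 and 13.9 for the Brangus ones, and 18.5 and 13.1 for the Holstein Friesian ones. The Kedah-Kelantan ratios were below all others, and those of Brangus and Holstein Friesian overlapped.

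Class I heavy chain genes are near-identical copies, so reads may be split between rows in a way that depends on the alleles an animal carries and on their likeness to the reference. The values of BOLA and BOLA-NC1 are uncertain for this reason. Apart from these, 3 rows carry a description as MHC class I, namely JSP.1 (chromosome 23, 28663711 to 28667352), LOC507917 (27872141 to 27875018) and LOC112443864, a class I polypeptide-related sequence with only 346 counts in all libraries together. A further 3, described as major histocompatibility complex class I, were added after their values were seen. They are a row spelled BoLA (27829793 to 27948002), LOC512672 (28492612 to 28510010) and LOC616942 (28055155 to 28059399). The span of the BoLA row contains that of LOC507917.

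JSP.1 was the row with the greatest difference between replicates. It had 172 and 197 CPM in Kedah-Kelantan, 91.7 and 2967 CPM in Brangus, and 70.4 and 69.4 CPM in Holstein Friesian. Brangus replicate 2 had 32.4 times the JSP.1 level of Brangus replicate 1, the greatest absolute log2 difference between these 2 libraries among the 9112 genes. In that library JSP.1 held 69062 counts, close to the 78206 of BOLA, which was itself 1.36 times its level in replicate 1. The breed mean of JSP.1 in Brangus, 1529 ± 2033 CPM (SD, n = 2), therefore describes neither library. Against Holstein Friesian the log2 fold change of JSP.1 was 4.45 in Brangus (SE 1.53, edgeR adjusted p = 0.647) and 1.40 in Kedah-Kelantan (SE 1.35, edgeR adjusted p = 0.995), and both Kedah-Kelantan libraries were above both Holstein Friesian libraries. LOC507917 also differed between replicates, with 30 and 26 CPM in Kedah-Kelantan, 33.4 and 81.5 CPM in Brangus, and 24.9 and 133 CPM in Holstein Friesian.

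The remaining rows are those chosen after their values were seen. LOC512672 had 1099 and 889 CPM in Kedah-Kelantan, 893 and 917 CPM in Brangus, and 887 and 1146 CPM in Holstein Friesian, and the 3 breeds overlapped. The BoLA row had 325 and 323 CPM in Kedah-Kelantan, 435 and 425 CPM in Brangus, and 707 and 424 CPM in Holstein Friesian. LOC616942 had 13.2 and 13.6 CPM in Kedah-Kelantan, 9.55 and 14.1 CPM in Brangus, and 31.1 and 29.8 CPM in Holstein Friesian, where both libraries were above all others. None of these 6 further rows passed edgeR's test in any comparison (smallest adjusted p = 0.485). Before adjustment, the edgeR p of LOC616942 was 0.00506 in Kedah-Kelantan and 0.00269 in Brangus against Holstein Friesian, that of BoLA 0.0299 in Kedah-Kelantan against Holstein Friesian and that of JSP.1 0.0318 in Brangus against Holstein Friesian.

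Summing the 7 heavy chain rows, without the polypeptide-related one, is less open to how reads were split among them. The sum was 2968 and 2995 CPM in Kedah-Kelantan, 4200 and 8236 CPM in Brangus, and 3439 and 3756 CPM in Holstein Friesian. The order of the breeds was that of BOLA, with no overlap. Since BOLA is itself part of this sum, the likeness of the orders is partly built in. The log2 fold change of the sum was -1.06 in Kedah-Kelantan against Brangus (SE 0.35), 0.79 in Brangus against Holstein Friesian (SE 0.34) and -0.27 in Kedah-Kelantan against Holstein Friesian (SE 0.34), against -1.52, 0.84 and -0.68 for BOLA alone. The sum of only the 5 rows described as MHC class I, the polypeptide-related one included, was at -1.56 (SE 0.44), 1.29 (SE 0.43) and -0.27 (SE 0.43) in the same comparisons. The share of the sum held by BOLA was 31.4% and 36.9% for the Kedah-Kelantan libraries, 58.7% and 40.8% for the Brangus ones, and 45.2% and 45.3% for the Holstein Friesian ones. BOLA-NC1 held 13.4% and 14.7% for the Kedah-Kelantan libraries, 6.43% and 5.72% for the Brangus ones, and 4.75% and 6.76% for the Holstein Friesian ones. JSP.1 held 36.0% in Brangus replicate 2 and between 1.85% and 6.57% in the other libraries. On the authors' FPKM scale, the ratio of B2M to the summed heavy chains was 2.96 and 3.06 for the Kedah-Kelantan libraries, 2.66 and 1.40 for the Brangus ones, and 3.33 and 3.06 for the Holstein Friesian ones, lowest in the library with the high JSP.1.

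**Figure D3:**
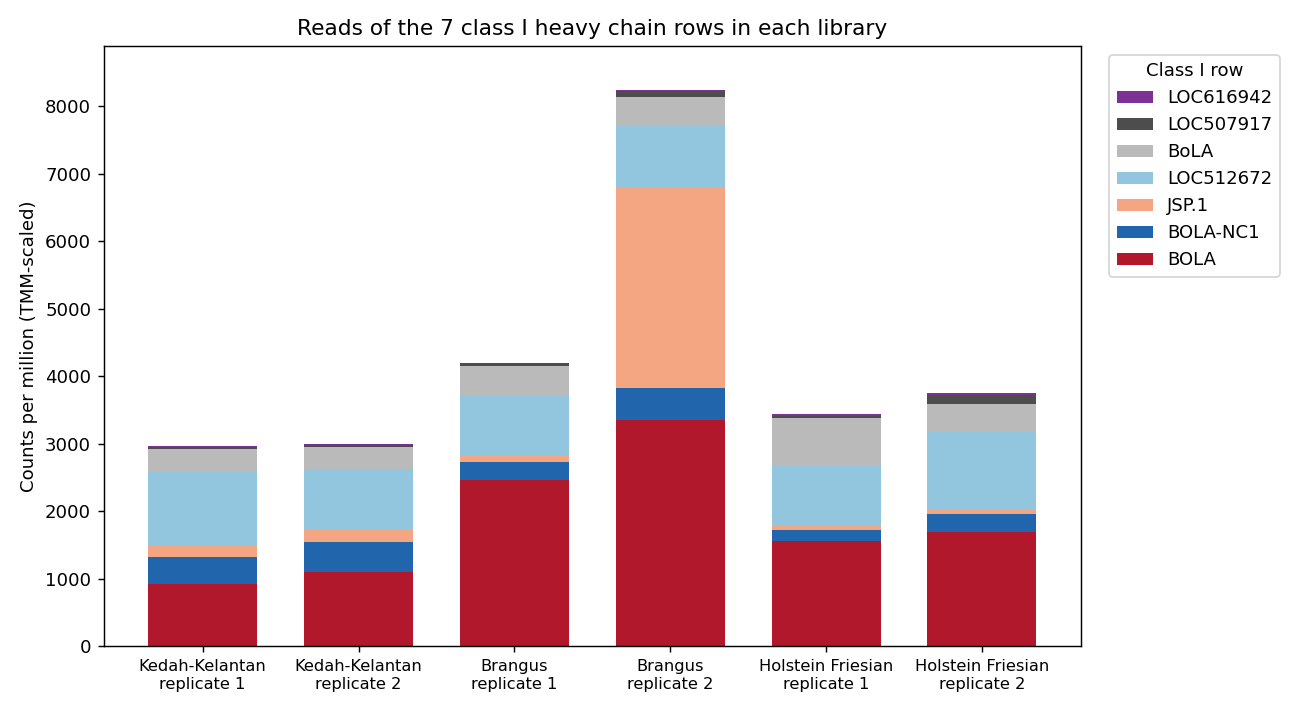
CPM (vertical axis, TMM-scaled, from 0) of the 7 class I heavy chain rows, stacked for each of the 6 libraries. The stack reaches 8236 CPM in Brangus replicate 2, where JSP.1 makes up 36.0%, and lies between 2968 and 4200 CPM in the other libraries.

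The peptide transporter and tapasin were at their highest in 1 Holstein Friesian library. TAP1, a subunit of the peptide transporter, had 262 and 316 CPM in Kedah-Kelantan, 258 and 310 CPM in Brangus, and 233 and 516 CPM in Holstein Friesian. TAP2, its partner subunit, had 69.2 and 82.0 CPM in Kedah-Kelantan, 83.0 and 98.0 CPM in Brangus, and 74.3 and 132 CPM in Holstein Friesian. TAPBP, which encodes tapasin, had 525 and 621 CPM in Kedah-Kelantan, 574 and 594 CPM in Brangus, and 525 and 822 CPM in Holstein Friesian. In each of these genes Holstein Friesian replicate 2 was above the other 5 libraries, and replicate 1 was among the lower ones.

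Among the members, TAP2 lay nearest to both TAP1 and TAPBP over the libraries. On the centred log2 CPM scale, the root mean square difference was 0.148 between TAP1 and its nearest member TAP2, and 0.126 between TAP2 and TAPBP. Many other genes lay closer, since among 9111 genes TAP2 ranked 105th for TAP1 and 201st for TAPBP, and TAPBP 57th for TAP2. The FPKM ratio of TAP1 to TAP2 was 3.59 and 3.64 for the Kedah-Kelantan libraries, 2.94 and 3 for the Brangus ones, and 2.96 and 3.70 for the Holstein Friesian ones. Against Holstein Friesian, the log2 fold changes in Kedah-Kelantan were -0.37 for TAP1 (SE 0.39), -0.45 for TAP2 (SE 0.31) and -0.23 for TAPBP (SE 0.26), and in Brangus -0.40, -0.19 and -0.21 with the same SEs. Without Holstein Friesian replicate 2 they became 0.27, -0.02 and 0.08 in Kedah-Kelantan and 0.25, 0.25 and 0.11 in Brangus. Without Holstein Friesian replicate 1 they were -0.83, -0.80 and -0.52 in Kedah-Kelantan (edgeR adjusted p = 0.0106, 0.0127 and 0.0394) and -0.87, -0.55 and -0.50 in Brangus (0.00556, 0.0371 and 0.0296). With BOLA, 4 members were then called lower in Kedah-Kelantan, against 10.7% of genes. In Brangus, 5 were called lower, these 3 with NLRC5 and ERAP1, against 16.8% of genes, and BOLA was called higher, against 14.5%. In Kedah-Kelantan against Brangus they were 0.02, -0.26 and -0.03, with 95% intervals of -0.97 to 1.01, -1.03 to 0.51 and -0.69 to 0.63. The sign for TAP1 turned to -0.11 without Kedah-Kelantan replicate 2 or Brangus replicate 1. That for TAPBP turned to 0.10 without Kedah-Kelantan replicate 1.

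NLRC5 had 316 and 270 CPM in Kedah-Kelantan, 184 and 276 CPM in Brangus, and 254 and 451 CPM in Holstein Friesian. The breeds overlapped, and Holstein Friesian replicate 2 was again the highest. Its log2 fold change was -0.27 in Kedah-Kelantan against Holstein Friesian (SE 0.35, 95% interval -1.15 to 0.61), -0.62 in Brangus against Holstein Friesian (SE 0.35, interval -1.50 to 0.26) and 0.35 in Kedah-Kelantan against Brangus (SE 0.35, interval -0.53 to 1.23). Against Holstein Friesian, Kedah-Kelantan was at 0.16 without Holstein Friesian replicate 2, and Brangus was at -0.98 without replicate 1. NLRC5 and BOLA were not in the same order across breeds, since Brangus had the highest BOLA and the lowest mean NLRC5, at 230 ± 64.9 CPM against 352 ± 139 CPM in Holstein Friesian (SD, n = 2). The nearest member to NLRC5 was TAP1, at a root mean square difference of 0.248.

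ERAP1 had 103 and 90.1 CPM in Kedah-Kelantan, 76.0 and 53.4 CPM in Brangus, and 96.5 and 143 CPM in Holstein Friesian. Both Brangus libraries were below the other 4. The log2 fold change was -0.89 in Brangus against Holstein Friesian (SE 0.28, 95% interval -1.60 to -0.18, edgeR adjusted p = 0.645), 0.58 in Kedah-Kelantan against Brangus (SE 0.28, interval -0.13 to 1.28, edgeR adjusted p = 0.491) and -0.31 in Kedah-Kelantan against Holstein Friesian (SE 0.28). The difference between Brangus and Holstein Friesian was -1.15 without Holstein Friesian replicate 1, and -0.62 to -1.20 over all alternatives. Brangus, the breed with the most BOLA and B2M, had the least of this peptide-trimming gene.

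Within Holstein Friesian the members split by replicate. In replicate 2 minus replicate 1, the log2 difference was 1.15 for TAP1, 0.83 for TAP2, 0.83 for NLRC5, 0.65 for TAPBP, 0.63 for BOLA-NC1 and 0.57 for ERAP1. It was 0.13 for BOLA, 0.11 for CANX, 0.07 for B2M and -0.26 for CALR. The median absolute difference was 0.60 for the 10 members and 0.48 for the 9112 genes. These differences went with the interferon response list, whose summed level was 562 CPM in replicate 1 and 4490 CPM in replicate 2, while the 4 libraries of the other breeds had 1349 to 1925 CPM, with no listed gene at 0. They also went with the neutrophil list, at 369 CPM in replicate 1 and 4815 CPM in replicate 2, while the other breeds had 1342 to 2583 CPM, and with the monocyte list, at 48.9 CPM in replicate 1 and 1129 CPM in replicate 2. In Brangus all 12 tested interferon response genes were also higher in replicate 2, with a median of 0.59. There TAP1 was at 0.27, TAP2 at 0.24, TAPBP at 0.05 and NLRC5 at 0.58, while ERAP1 was at -0.51. The part of these lists in the values of TAP1, TAP2, TAPBP, NLRC5 and ERAP1 was not tested.

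Within the other breeds the members differed less between libraries. The median absolute difference of the 10 members was 0.22 in Kedah-Kelantan and 0.29 in Brangus, against 0.13 and 0.18 for the 9112 genes. In Brangus, BOLA-NC1 (0.80), NLRC5 (0.58), ERAP1 (-0.51) and BOLA (0.45) had the greatest differences. The B cell list, summing to 1656 and 1793 CPM in Kedah-Kelantan, 2779 and 2401 CPM in Brangus, and 2693 and 158 CPM in Holstein Friesian, was ordered between Kedah-Kelantan and Brangus as BOLA and B2M were. In Holstein Friesian, BOLA and B2M differed by 0.13 and 0.07 between the 2 libraries whose B cell markers differed by a median of -4.08. Those libraries also differed in the neutrophil, monocyte and interferon response lists, so the B cell list cannot be told apart from these there. The platelet list was also high in Brangus, with 222 and 259 CPM in Kedah-Kelantan, 1004 and 1042 CPM in Brangus, and 340 and 427 CPM in Holstein Friesian. The erythroid list was high there too, with 147 and 184 CPM in Kedah-Kelantan, 445 and 641 CPM in Brangus, and 99.4 and 232 CPM in Holstein Friesian. In Kedah-Kelantan replicate 2 and both Holstein Friesian libraries, 1 of 5 erythroid markers was at 0. The interferon response list leaned the other way from BOLA and B2M in Kedah-Kelantan against Brangus. Of its 12 tested genes, 10 were above 0 and 2 below, with a median of 0.73, and none was called. Its summed levels overlapped, at 1868 and 1790 CPM in Kedah-Kelantan and 1349 and 1925 CPM in Brangus. The list of NK and cytotoxic lymphocytes was low in Brangus, as ERAP1 was. It had 610 and 682 CPM in Kedah-Kelantan, 229 and 301 CPM in Brangus, and 554 and 303 CPM in Holstein Friesian. Holstein Friesian replicate 2, at 303 CPM for this list, had the highest ERAP1 of all libraries, at 143 CPM. No B cell, platelet or NK marker was at 0 in a library, and the part of these lists in the breed differences was not tested.

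**Figure D4:**
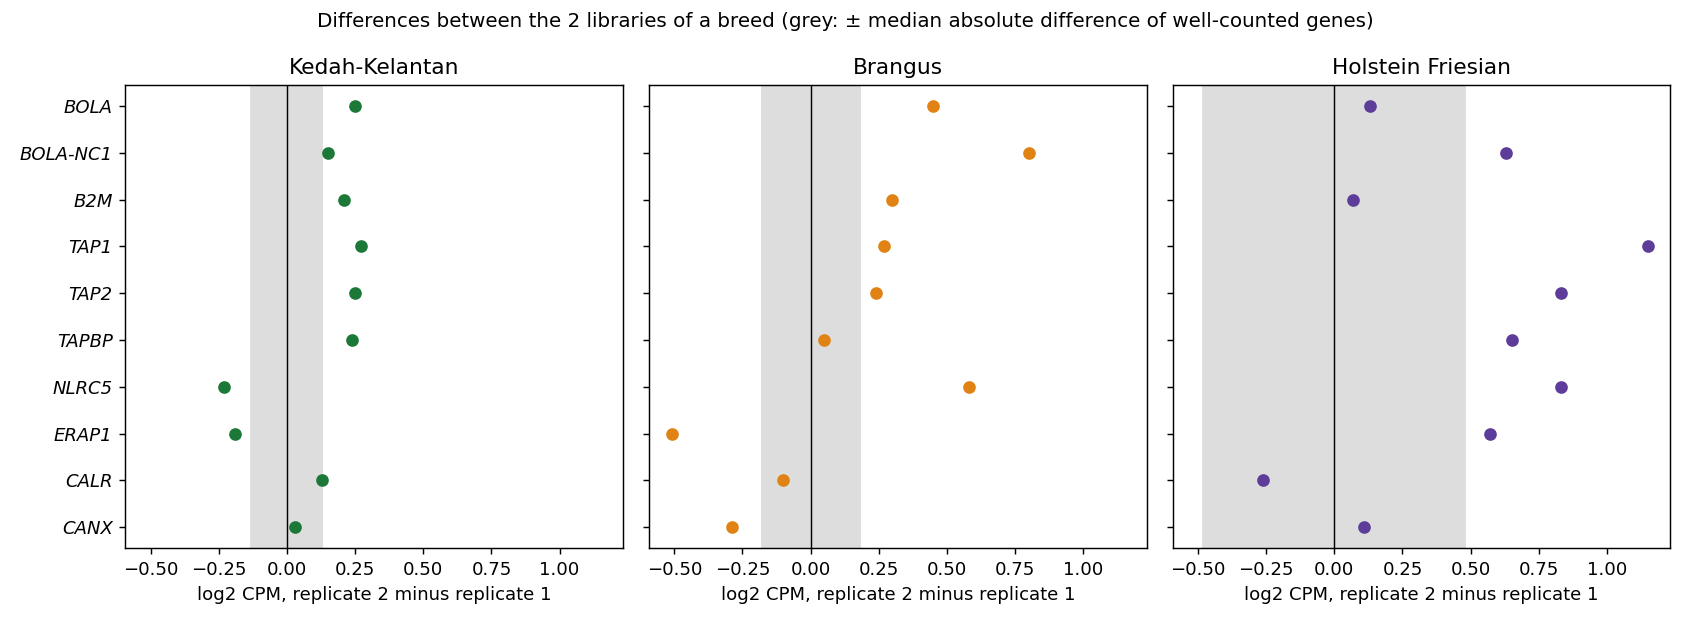
Log2 CPM of replicate 2 minus replicate 1 (horizontal axis) for each gene in the 3 breeds. The grey band is ± the median absolute difference of 9112 genes, so as many of these genes lie outside it as inside. The median was 0.13 for the Kedah-Kelantan libraries, 0.18 for the Brangus ones and 0.48 for the Holstein Friesian ones. In Holstein Friesian 6 of the 10 members lie above the band.

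As a list, the members leaned to the lower side in Kedah-Kelantan against Holstein Friesian, where 9 of 10 had a log2 fold change below 0 and the median was -0.30, against 46.5% above 0, 53.5% below 0 and a median of -0.03 over all genes tested. Libraries of these breeds did not overlap for 1 member on the higher side (BOLA-NC1) and 4 on the lower side (BOLA, B2M, CALR and CANX), against 18.1% and 12.6% of all genes. Without Holstein Friesian replicate 2, 6 of 10 were below 0 and the median was -0.03, and without replicate 1, 9 of 10 were below 0 and the median was -0.54. In Brangus against Holstein Friesian, 4 members were above 0 and 6 below, with a median of -0.14, against 47.3% and 52.7% of genes and a median of -0.03. The libraries did not overlap for 4 higher (BOLA, BOLA-NC1, B2M and CALR) and 1 lower (ERAP1), against 18.4% and 15.9% of genes, and leaving out Holstein Friesian replicate 1 gave a median of -0.32, leaving out replicate 2 one of 0.18. In Kedah-Kelantan against Brangus, 4 were above 0 and 6 below, with a median of -0.02, against 51.9% and 48.1% of genes and a median of 0.02. In the same comparison 1 higher (ERAP1) and 4 lower members (BOLA, B2M, TAP2 and CALR) did not overlap, against 33.5% and 30.7% of genes. With the authors' FPKM in place of scaled counts, the median of all genes moved to 0.12, -0.06 and 0.19 in the 3 comparisons, and that of the members to -0.11, -0.21 and 0.24.

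Among 34 other genes of the class I pathway, none passed edgeR's test in any comparison, and 5, 2 and 5 had an unadjusted p under 0.05, against 4.04%, 7.62% and 11.6% of all genes tested. In Brangus against Holstein Friesian, DESeq2 called 1 of the 34, JSP.1 (adjusted p = 0.0136), against 2.33% of all genes. In Kedah-Kelantan against Brangus it called 1, PSMB8 (adjusted p = 0.0013), against 4.99%. JSP.1 had 91.7 CPM in Brangus replicate 1 and 2967 CPM in replicate 2. The medians of the 34 genes were -0.18 in Kedah-Kelantan against Holstein Friesian, -0.11 in Brangus against Holstein Friesian and -0.01 in Kedah-Kelantan against Brangus. The first 2 medians were -0.37 and -0.26 without Holstein Friesian replicate 1, and 0.04 and 0 without replicate 2, and on FPKM the first was 0.05. The 5 immunoproteasome and proteasome activator genes, which make and tune the peptide supply, were below 0 in 5 of 5 cases in Kedah-Kelantan against either other breed, with medians of -0.49 against Holstein Friesian and -0.53 against Brangus. Leaving out Holstein Friesian replicate 1 gave a median of -0.51 against that breed and leaving out replicate 2 one of -0.55, with 5 of 5 below 0 each time. PSMB8, a catalytic immunoproteasome subunit, averaged 498 ± 48.8 CPM in Kedah-Kelantan, 857 ± 62.4 CPM in Brangus and 729 ± 13.4 CPM in Holstein Friesian (SD, n = 2 each). Its log2 fold change in Kedah-Kelantan was -0.78 against Brangus (SE 0.18, edgeR adjusted p = 0.353) and -0.55 against Holstein Friesian (SE 0.18, edgeR adjusted p = 0.995). Against Holstein Friesian, PSMB8 was at -0.57 when either Holstein Friesian library was left out. PSME1 and PSME2, the proteasome activator subunits, were at -0.53 (SE 0.18) and -0.59 (SE 0.20) against Brangus, and at -0.49 (SE 0.18) and -0.68 (SE 0.20) against Holstein Friesian. With only the Kedah-Kelantan and Brangus libraries in the edgeR fit, 5 of the 34 genes were called higher and 6 lower in Kedah-Kelantan, against 9.09% and 10.2% of all genes. The 5 higher were CD8A and CD8B, the chains of the CD8 co-receptor, with GANAB, LNPEP and SEC61A1. The 6 lower were PSMB8 (edgeR adjusted p = 0.00487), PSME1 (0.0265), PSME2 (0.0233), RFXAP (0.0448) and the interferon gamma receptor genes IFNGR1 (0.0208) and IFNGR2 (0.0371). For PSMB8, PSME1 and PSME2 the Kedah-Kelantan libraries were below those of both other breeds.

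The 7 interferon signalling genes had a median of -0.45 in Kedah-Kelantan against Holstein Friesian, -0.35 in Brangus against Holstein Friesian and -0.20 in Kedah-Kelantan against Brangus. The first 2 medians rested on single Holstein Friesian libraries, at -1.05 and -0.65 without replicate 1 and at 0.24 and 0.66 without replicate 2. For IRF1, IFNGR1, IFNGR2 and JAK2, Holstein Friesian replicate 2 was above all other libraries and replicate 1 below them, as for IRF1 with 409 and 452 CPM in Kedah-Kelantan, 432 and 719 CPM in Brangus, and 354 and 1284 CPM in Holstein Friesian. The 7 promoter-binding factors had medians of 0.10, 0.21 and 0.05 in the same comparisons, and the 6 genes of loading and glycoprotein folding -0.09, -0.35 and 0.21. Against Holstein Friesian without its replicate 2, the promoter-binding factors were at -0.08 in Kedah-Kelantan and -0.03 in Brangus, and the loading and folding genes at 0.44 and -0.01. Without replicate 1 the promoter-binding factors were at 0.16 and 0.35, and the loading and folding genes at -0.49 and -0.76. With the smallest p in Brangus against Holstein Friesian, LNPEP, an aminopeptidase, was at -0.67 (SE 0.22) and SEC61A1, a subunit of the translocation channel, at -0.91 (SE 0.39), beside JSP.1.

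The genes nearest in pattern were sought for NLRC5, BOLA and BOLA-NC1, by the root mean square difference of centred log2 CPM. The nearest to NLRC5 were LGALS8 (root mean square difference 0.045), SIK2 (0.051) and GAB3 (0.062) among 9111 genes compared over the 6 libraries. BOLA lay nearest to ICAM1 (0.168), BAG2 (0.178) and RPL3 (0.179), and BOLA-NC1 to C22H3orf62 (0.170), MIER2 (0.213) and NCR3 (0.218). The nearest member to BOLA-NC1 was TAPBP at 0.577, which ranked 3233rd of the 9111 genes, the lowest rank of a nearest member.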

How the data were processed

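Gene expression was measured by RNA-seq in 6 whole-blood libraries, 2 for each of 3 breeds. The authors deposited raw read counts and FPKM for 21698 genes. The build ARS-UCD1.2 and the tools featureCounts 2.0.1, HISAT2 2.2.1, DESeq2 1.38.0, Trimmomatic 0.39 and FastQC 0.11.9 are listed per the submitters' processing notes. What each tool was used for, and the strand setting, is not given in the sources used here. Deposited FPKM values are, per the file headers, the authors' own, scaled by gene length and library size. Coordinates are those the authors deposited.

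The counts were tested with edgeR 4.0.16 (R 4.3.3): TMM scaling, a filter on low counts, breed as the only term, all 6 libraries in 1 fit with 3 residual degrees of freedom, and Benjamini-Hochberg adjustment over 13455 genes with a threshold of 0.05. Log2 CPM used a prior count of 2. Alternatives were DESeq2 1.42.0, DESeq2 size factors, no low-count filter, a mean count of at least 50, limma 3.58.1 on log2(FPKM + 1), only the 2 breeds compared, replicate numbers as a block, no haemoglobin genes, summed heavy chain rows, and leaving out each library. Same-numbered libraries deviated together with correlations of 0.06, -0.01 and 0.2, so the numbers were not taken as pairs. Replicates of a breed differed by more than sampling noise.

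The 10 genes, the gene lists and the tests were chosen with earlier results of these data known. Named genes were the 10 members, the pathway genes with the 3 smallest p-values in a comparison, class I rows with at least 100 counts and the 3 genes nearest to BOLA, BOLA-NC1 and NLRC5. The likeness measure used genes with a mean log2 CPM of at least 3. The planned search of 6 promoter motifs was not run. Intervals cover the spread between these libraries.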

Additional observations from a re-analysis of the deposited data

How the results depend on the processing

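Over 30 log2 fold changes of members and 432 alternative values of them, 387 kept their direction and their side of the threshold, 23 kept their direction and passed, and 22 changed sign. BOLA, B2M, CALR and ERAP1 kept their sign in every alternative run in all 3 comparisons. For BOLA these runs include the summed heavy chain rows, of which BOLA is part. With Kedah-Kelantan set against Holstein Friesian, then Brangus against the same, then Kedah-Kelantan against Brangus, DESeq2 called 130, 313 and 672 genes and 0, 0 and 2 members, against 1, 1 and 0 genes and no members by edgeR. Fits of only the 2 breeds called 0, 0 and 2537 genes and 0, 0 and 3 members. DESeq2 size factors left 0 genes in Brangus against Holstein Friesian, a mean count of at least 50 left 0 in both comparisons with Holstein Friesian, and limma on FPKM called 2 in the first. With the replicate block, 0 genes were called in both comparisons with Holstein Friesian and 0 members in any, and the numbers do not pair the libraries. Leaving out 1 library gave 0 to 2464, 0 to 4395 and 0 to 2458 genes, and 0 to 4, 0 to 6 and 0 to 3 members. In Kedah-Kelantan against Holstein Friesian, leaving out 1 library moved TAP1 between -0.83 and 0.27, TAPBP between -0.52 and 0.08 and NLRC5 between -0.62 and 0.16. In Brangus against Holstein Friesian it moved TAP1 between -0.87 and 0.25, TAP2 between -0.55 and 0.25, TAPBP between -0.50 and 0.11 and CANX between -0.27 and 0. In Kedah-Kelantan against Brangus it moved BOLA-NC1 between -0.17 and 0.64, TAP1 between -0.11 and 0.17, TAPBP between -0.14 and 0.10 and CANX between -0.15 and 0.13. On FPKM, CANX turned to 0.06 against Holstein Friesian in Kedah-Kelantan, and against Brangus TAP2 turned to 0, TAPBP to 0.23 and CANX to 0.25. Taking the sum of heavy chain rows for BOLA-NC1 gave -0.27 against Holstein Friesian with either 5 or 7 rows, and -1.56 (5 rows) or -1.06 (7 rows, a choice made after seeing the data) against Brangus. The cause of these changes was not tested. With 3 residual degrees of freedom, the coefficient of variation shared by all genes came to 0.431.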

Other observations

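The row JSP.1 was not alone in differing between the Brangus libraries. Among MHC class II genes, chosen after their values were seen, BOLA-DQA2 had 2212 and 2628 counts in the Kedah-Kelantan libraries, 0 and 1484 in those of Brangus, and 2 and 0 in those of Holstein Friesian. BOLA-DQA5 had 2 and 5 counts in the Kedah-Kelantan libraries, 3 and 3538 in those of Brangus, and 14424 and 3732 in those of Holstein Friesian. BOLA-DQB had 2 and 0 counts in the Kedah-Kelantan libraries, 6 and 6548 in those of Brangus, and 14514 and 4882 in those of Holstein Friesian. For these 3 genes Brangus replicate 1 held 0 to 6 counts and Brangus replicate 2 at least 1484, while JSP.1 held 2141 and 69062 counts in these libraries. DQ genes encode class II molecules that show peptides to CD4 T cells, and in cattle their copy number differs between haplotypes.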
